A study of Arabidopsis thaliana with 7 samples.

Results

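Of the 10233 places in the Arabidopsis genome where HY5-YFP was found in blue or red light, 1160 (11.3%) had another such place within 1500 bp. A site here is a stretch covered by peaks of 6 peak lists that shared at least 1 bp, and its centre is the median of the centres of its peaks. A site was kept where its centre lay 1500 bp or less from the centre of another site on the same chromosome. The 1160 kept sites formed 541 pairs and 26 groups of 3 sites, and the 9073 others are called lone sites. The kept sites were between 10.0% and 12.2% of the sites on each of the 5 chromosomes.

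HY5, a transcription factor of the bZIP class, drives seedling development in light and binds, as a dimer, to short DNA elements with an ACGT core. Plant promoters often hold several such elements, so a gene can carry more than one HY5 site, in its upstream region, inside it or shared with a neighbouring gene. ChIP-seq shows bound DNA as a heap of sequenced fragments wider than the element itself, and a peak caller decides whether heaps that stand close together are 1 peak or several.

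Whole Arabidopsis plants, 10 days old, spent 52 hours under blue or red lamps at a fluence rate of 15 µmol m-2 s-1, after entrainment to light and dark cycles, and HY5-YFP with its DNA was pulled down in 3 biological replicates per light. Both groups were of the Wassilevskija (Ws) accession, carried the T-DNA insertion hy5-ks50 in HY5 and expressed the HY5-YFP fusion, and the labels name neither the promoter of the fusion nor the number of lines. The mock was made once, from the mixed blue light triplicates with beads lacking the antibody, and is the control of all 6 libraries. Plants without the fusion were not analysed here. Since whole plants were used, fewer cells with HY5-YFP on a site and less HY5-YFP on it per cell cannot be told apart.

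Each library has a list of peaks that the authors called in it alone, so a site either has a tag number in a library or has none. A tag is a sequenced fragment end, and tag numbers are given per 10 M tags (1 M is 1e6) of the library. The libraries held between 7.99 and 11.9 M tags. Blue light lists had 8724, 8524 and 8888 peaks and red light lists 4027, 5672 and 5441. The caller kept a minimum distance between peaks, which was 694, 696 and 680 bp for blue light and 1098, 612 and 624 bp for red light replicates 1 to 3, per the file headers. Red light replicate 1 stood apart. Its windows were 549 bp wide, against 306 to 348 bp in the other 5, so it counts tags over a longer stretch per site, and it holds no 2 peaks closer than 1098 bp. Several results that rest on it, but not all, are also given without it or for the 223 pairs that lie more than 1098 bp apart.

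Of the 541 pairs, 45 lay no farther apart than 612 bp, the smallest minimum distance between peaks of any list. No farther apart than 1098 bp, the minimum distance of red light replicate 1, were 318. The centres of the 541 pairs lay between 350.5 and 1496 bp apart, with a median of 1010 bp and quartiles at 822 and 1244.5 bp. None of the 22 pairs up to 500 bp apart was called at both sites in any of the 6 libraries. Of the 69 pairs between 500 and 750 bp, the 3 blue light lists held both sites for 9, 8 and 16 and the red light lists for 0, 15 and 10. Of the 223 pairs beyond 1098 bp the numbers were 153, 140 and 164 in blue light and 12, 60 and 53 in red light. In all, 83 pairs (15.3%) were never seen as a pair within 1 library: their sites came from different lists. They were all 22 pairs up to 500 bp, 37 of the 69 between 500 and 750 bp, 9 of the 175 between 750 and 1000 bp, 2 of the 52 between 1000 and 1098 bp and 13 of the 223 beyond 1098 bp. For the closest pairs a position of the peak that moved between lists, and a true pair of sites, cannot be told apart.

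**Figure D1:**
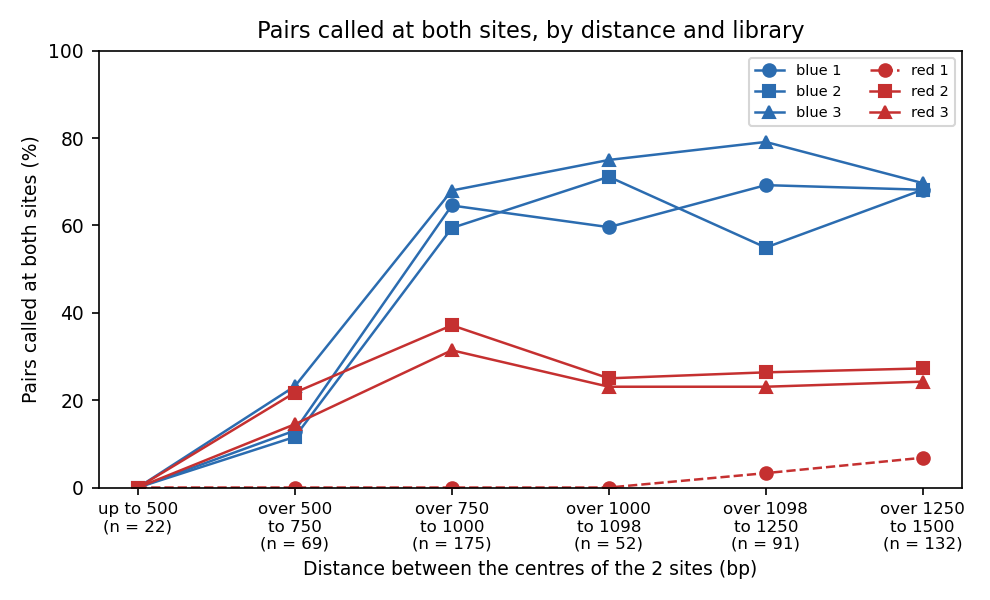
Share of pairs of neighbouring sites called at both sites in a library (vertical axis, %), by the distance between the site centres (horizontal axis, bp), with 1 line for each of the 3 blue and 3 red light libraries. No pair up to 500 bp apart was called at both sites; beyond 1098 bp the blue light libraries held both sites of 62.8% to 73.5% of pairs and the red light libraries of 5.38% to 26.9%.

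Both sites of a pair were called in 306, 289 and 338 of the 541 pairs in blue light and in 12, 153 and 130 in red light. As a share of pairs this was 57.5% ± 4.60 (SD, n = 3) in blue and 18.2% ± 14.0 (SD, n = 3) in red light, a difference of 39.3 percentage points, and the libraries of the 2 lights did not overlap. With 3 libraries against 3 the smallest p of an exact two-sided permutation test is 0.1, which was reached here. Without red light replicate 1 the difference was 30.5 percentage points, and for pairs beyond 1098 bp, also without it, 43.2. Lone sites, taken singly, were also called more often in blue light (84.4% to 87.7%) than in red light (40.9% to 56.2%). A difference between the lights is thus not particular to pairs. The difference in pairs moved with the length of the lists. When every list was reduced to its 4027 peaks with the most tags, 191 pairs were left, and both sites were called in 46.1%, 46.1% and 49.2% of them in blue light replicates 1 to 3 and in 6.28%, 53.4% and 50.3% in red light replicates 1 to 3. Red light replicates 2 and 3 then lay above all 3 blue light libraries.

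Within a pair the site that was lower in blue light was missing from the red light lists more often than the higher one. Both sites were called in all 3 blue light libraries in 205 pairs. In these the higher site had a median of 283 tags and the lower one 205, the median ratio within a pair was 1.32 with quartiles at 1.11 and 1.72, and 27 pairs differed more than 2-fold. The higher site was called in 62.4%, 79.5% and 76.1% of the pairs in red light replicates 1 to 3, and the lower site in 13.2%, 54.1% and 53.2%. The higher site alone was called in 117, 67 and 70 pairs and the lower site alone in 16, 15 and 23. Both were called in 11, 96 and 86 pairs and neither in 61, 27 and 26. Among the 103 of these pairs beyond 1098 bp, red light replicates 1 to 3 held the higher site alone in 55, 35 and 40 and the lower alone in 6, 8 and 11. The height that ranks the sites comes from blue light, so the call in red light is a reading in libraries that did not choose it. Lone sites called in all 3 blue light libraries showed the same order by height. With 150 to 200, 200 to 300 and 300 to 400 tags, red light replicate 2 held 57.1%, 74.0% and 89.5% of them. Red light replicate 3 held 53.3%, 71.9% and 89.3%. Whether pairs differ from lone sites of the same heights in this was not tested.

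**Figure D2:**
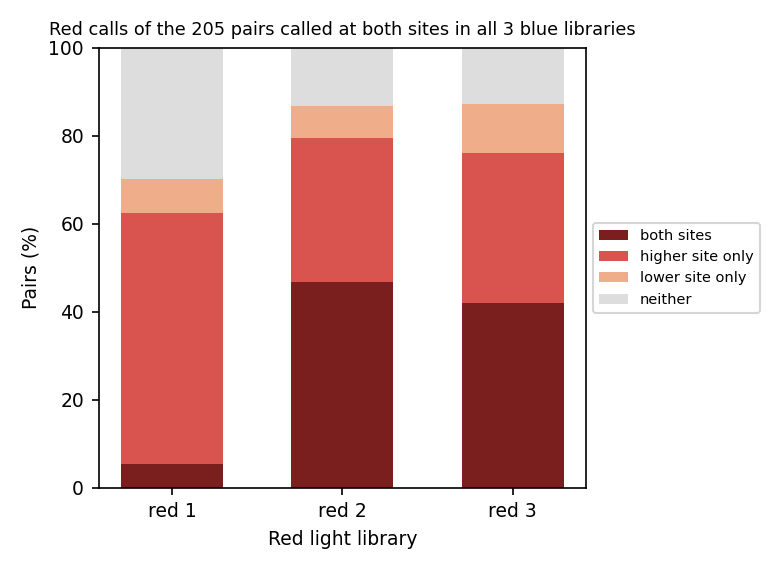
What became in each red light library of the 205 pairs called at both sites in all 3 blue light libraries: the stacked bars give the share of pairs (vertical axis, %) called at both sites, at the higher site only, at the lower site only and at neither. Pairs kept at the higher site only outnumber those kept at the lower site only in each of the 3 libraries (117 against 16, 67 against 15 and 70 against 23).

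Sites with a neighbour were called less often than lone sites in 6 of 6 libraries. In blue light replicates 1 to 3 the lists held 76.4%, 74.7% and 79.9% of the members and 86.4%, 84.4% and 87.7% of the lone sites. In red light replicates 1 to 3 they held 26.9%, 49.6% and 47.2% of the members and 40.9%, 56.2% and 53.9% of the lone sites. The gap was -9.16 percentage points ± 1.18 (SD, n = 3) in blue and -9.12 ± 4.27 (SD, n = 3) in red light, and the lights differed by -0.04 percentage points (exact two-sided permutation test, p = 1). For members whose nearest neighbour lay beyond 1098 bp it was -3.91 percentage points in blue and -8.04 in red light. The lights then differed by 4.14 percentage points (exact two-sided permutation test, p = 0.1, the smallest possible). Without red light replicate 1, and over all members, they differed by -3.30 percentage points (exact two-sided permutation test, p = 0.2). The gap was far smaller in lists of equal length, except in red light replicate 1. There it was -1.86, -1.07 and -1.86 percentage points in blue light replicates 1 to 3. In red light replicates 1 to 3 it was -33.0, -1.86 and -2.65. Members are defined by the calls themselves. A peak whose position moved far enough between lists counts as 2 members, each missing from some lists, so the rule by itself can lower the share of members. How far this, the minimum distance between peaks and the neighbour's tags in the surroundings of a peak enter the gap was not tested beyond these values.

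**Figure D3:**
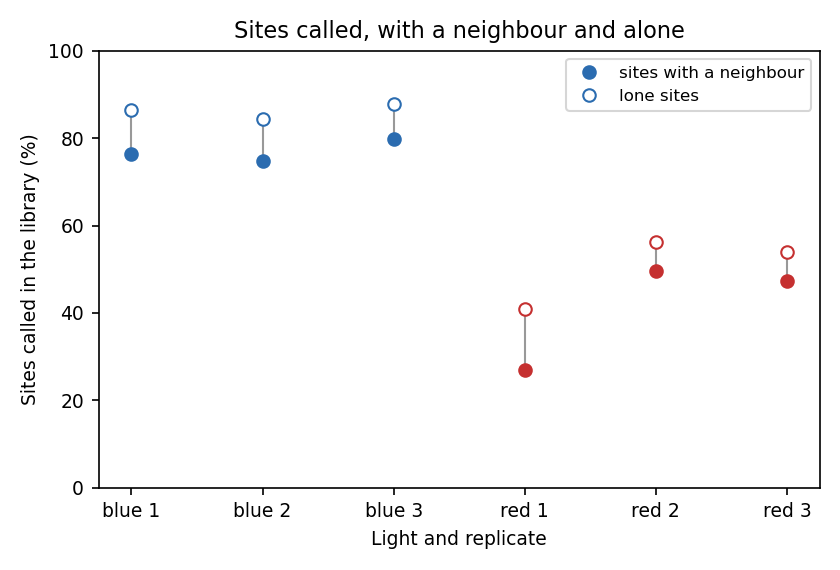
Share of sites called in each of the 6 libraries (vertical axis, %) for the 1160 sites with a neighbour (filled points) and the 9073 lone sites (open points). The filled point lies below the open one in each library, farthest in red light replicate 1 (26.9% against 40.9%).

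Members were spread over the libraries differently from lone sites. Only 247 members (21.3%) were called in all 6 libraries, against 36.5% of lone sites, and 172 (14.8%) in all 3 blue and no red light library, against 14.9%. Red light replicate 1 holds no 2 peaks closer than 1098 bp. In the 5 other libraries 33.9% of members and 46.7% of lone sites were called throughout. Of members whose nearest neighbour lay beyond 1098 bp, 25.4% were called in all 6 libraries and 39.1% in these 5. The share called in red light alone was 4.66% (54 members) against 1.09% of lone sites. Of these 54, 44 had their nearest neighbour within 1098 bp, 41 came from a single list and their median distance to the neighbour was 741 bp. Among the 468 members whose nearest neighbour lay beyond 1098 bp, 10 (2.14%) were found in red light alone. In 16 pairs 1 site was found in blue light alone and the other in red light alone, with a median distance of 647 bp, and in 3 of them 2 or 3 red light lists held the red light site. The move of a whole site with light and a shifted peak centre in 1 list cannot be told apart at such distances.

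Called members had median tags close to those of called lone sites in blue light and lower ones in red light. Median tags of members were 214.9, 214.6 and 214 in blue and 282, 163.8 and 166.6 in red light replicates 1 to 3, and those of lone sites 216.6, 214.6 and 214 in blue and 298, 174.2 and 179.2 in red light. On the scale of log2(tags + 1) the difference of the medians was larger in red light by 0.09 (exact two-sided permutation test, p = 0.1, the smallest possible). It was the other way round, -0.18, in lists of equal length. High sites were fewer among members: 4.29% of members and 8.82% of lone sites passed 600 tags in blue light replicate 1, and 1.39% and 4.28% in red light replicate 2. The fold of a peak over its 10000 bp surroundings, which the caller required to reach 4, had medians of 6.04, 6.01 and 6.02 for members and 7.6, 7.56 and 7.72 for lone sites in blue light, and of 5.53, 5.62 and 5.605 against 6.65, 6.85 and 6.88 in red light. These surroundings hold the neighbour's tags. The mock held 17 to 19 tags at the median member and lone site in 5 lists and 29 and 31 in that of red light replicate 1.

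At the same height in blue light, members as a whole were called less often in red light than lone sites below 400 tags, but those with a neighbour beyond 1098 bp were not below lone sites in every library. Of sites called in all 3 blue light libraries with a mean of 200 to 300 tags, 40.1%, 67.7% and 67.7% of 232 members were called in red light replicates 1 to 3, and 53.9%, 74.0% and 71.9% of 1743 lone sites. With 400 to 600 tags, red light replicates 2 and 3 held 96.7% and 96.7% of 61 members and 96.9% and 96.6% of 801 lone sites, and replicate 1 held 80.3% and 92.9%. Of the 70 members with 150 to 200 tags and a neighbour beyond 1098 bp, red light replicates 1 to 3 held 15.7%, 58.6% and 44.3%, against 30.9%, 57.1% and 53.3% of 1245 lone sites. Of the 41 such members with 300 to 400 tags they held 73.2%, 92.7% and 97.6%, against 80.4%, 89.5% and 89.3% of 945 lone sites. These shares carry no test. Beyond 1098 bp, members were called in red light replicates 2 and 3 at a similar share whether or not the neighbour was. Red light replicate 2 held 51.7% of members whose neighbour was called and 52.3% of those whose neighbour was not, and red light replicate 3 held 49.3% and 47.2%. Red light replicate 1 differed, with 18.3% and 34.0%. In blue light replicates 1 to 3 the shares were 83.4%, 78.9% and 86.1% beside a called and 77.2%, 82.4% and 81.5% beside an uncalled neighbour.

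To ask whether the sites of a pair respond to light alike, the ratio of their tags within a library was compared between lights. This ratio does not depend on the scaling of libraries. The left site is the one with the lower coordinate, and changes are of log2(left / right), blue minus red light. Both sites were called in all 6 libraries in 11 pairs, each farther apart than 1098 bp. Limma called the ratio changed in 4 of them (36.4%) at an adjusted p under 0.05. Its SEs pool the spread between replicates over all pairs fitted.

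The pair beside RAD51B, a gene for a protein of DNA repair by recombination, had the largest change of the 11. Both sites lie in the gap between RAP2.7, a gene for an AP2 factor that delays flowering, and RAD51B, on chromosome 2 at 12232750 to 12233298 and 12234142 to 12234690 (TAIR10). The left site held 481, 529 and 537 tags under blue and 355, 318 and 256 under red light replicates 1 to 3, and the right site 592, 613 and 583 under blue and 896, 612 and 579 under red light. The left site was lower in every red than in every blue light library, whereas the ranges of the right site overlap but for red light replicate 1, whose windows are wider and which stood highest. Group means were 516 ± 30.2 and 309.7 ± 50.3 tags (SD, n = 3) at the left and 596 ± 15.5 and 696 ± 174 at the right site. The ratio changed by 0.94 (SE 0.14, limma adjusted p = 3.59e-07), and by 0.85 without red light replicate 1. The mock had 23 to 28 tags at the left and 54 to 60 at the right site.

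At AT5G20740 a high site outside the gene was far lower in red light, next to a weaker one inside the gene. Its left site lies between NPH4, which encodes the auxin response factor ARF7, and AT5G20740, its right site inside AT5G20740, on chromosome 5 at 7024131 to 7024679 and 7025604 to 7026152. The left site held 955, 832 and 933 tags under blue and 376, 283 and 299 under red light, and the right site 358, 351 and 349 under blue and 356, 188 and 191 under red light. In blue light the left site was far the higher. In red light it was still the higher but by less, and nearly level with the right site only in replicate 1. The mean at the left site was 907 ± 66.0 under blue and 319 ± 50.0 in red light (SD, n = 3), and the ratio changed by 0.92 (SE 0.15, limma adjusted p = 9.46e-07), or by 0.74 without red light replicate 1. The changes at RAD51B and AT5G20740 stayed past the threshold in all 14 alternatives run for each.

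PSY, the gene of phytoene synthase, the first enzyme of carotenoid synthesis, shares a pair with SDG40, a SET domain gene. Both sites lie in the gap between the 2 genes on chromosome 5, at 5663960 to 5664508 and 5665383 to 5665931. The left site, nearer to PSY, held 824, 845 and 715 tags under blue and 712, 495 and 485 under red light, and the right site 898, 902 and 911 under blue and 538, 449.8 and 455 under red light. The right site was the higher of the pair in each blue and the lower in each red light library. The ratio changed by -0.40 (SE 0.13, limma adjusted p = 0.015), but without blue light replicate 1, 2 or 3 the limma adjusted p was 0.056, 0.0719 and 0.111.

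FRA1 encodes a kinesin needed for the layering of cell walls, and its pair had a site outside and one inside the gene, on chromosome 5 at 19364828 to 19365376 and 19366125 to 19366673. Tags at the left site were 231, 196 and 234 under blue and 195, 153 and 151 under red light, and at the right site 276, 298 and 253 and 220.0, 130.0 and 123. The site inside the gene was the higher in blue light and, in red light replicates 2 and 3, the lower. Its ratio changed by -0.44 (SE 0.18, limma adjusted p = 0.0449), and without blue light replicate 1 or 2 or red light replicate 2 or 3 the limma adjusted p was between 0.149 and 0.284.

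The other 7 pairs did not pass the threshold, and their changes lay between -0.23 and 0.23. They include CYP97B3, a gene of a cytochrome P450 of the carotene hydroxylase family, with AT4G15120 (0.23), AT3G21320 (-0.23), and SUVR1 with PRP39 (0.17). The pair at AT1G75800 and AT1G75810 is a high one, with 679.7, 634 and 658 tags at the left and 596, 571 and 633 at the right site in blue light and 566, 354 and 389.5 and 538, 392 and 374 under red light. Both sites were lower in red light, and the change of the ratio was 0.14 with a 95% interval from -0.14 to 0.42. At RKP the change was 0.04 with an interval from -0.29 to 0.36. It was also 0.04 at AT1G35560 and 0.02 at AT4G21926. The sign of these 3 changes turned with some libraries left out. These intervals do not show that the sites of a pair act alike.

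**Figure D4:**
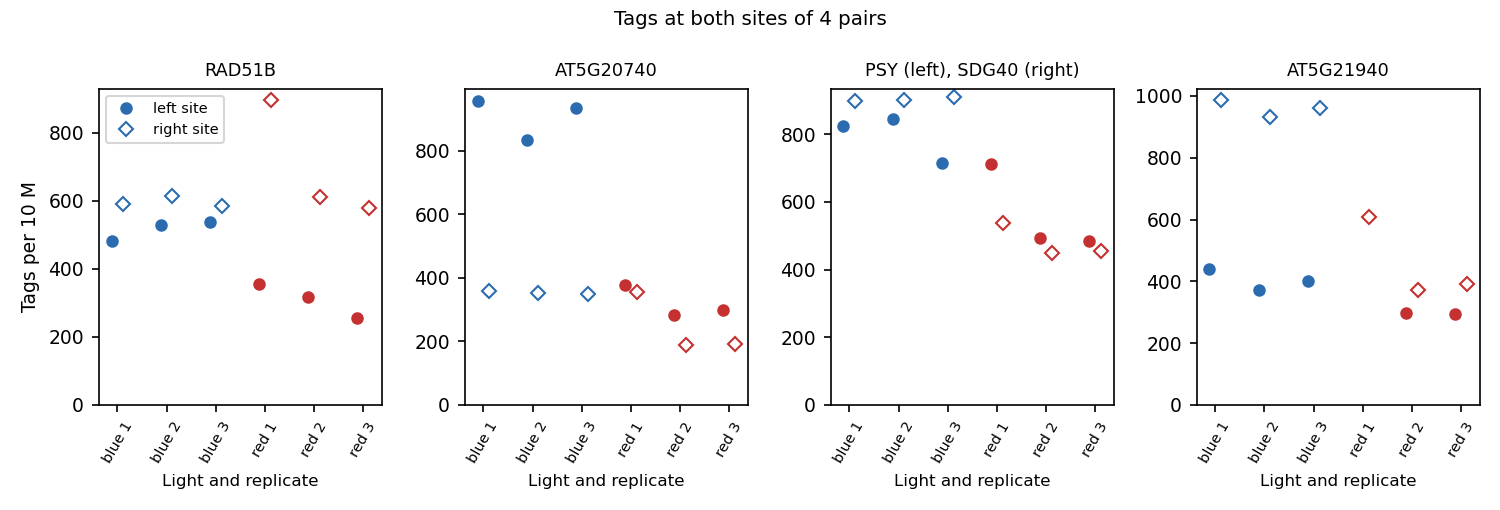
Tags per 10 M (vertical axis) at the left (filled circles) and right (open diamonds) site of 4 pairs, in the 3 blue and 3 red light libraries (horizontal axis), each panel with its own scale from 0. The left site of AT5G21940 has no peak in red light replicate 1. At RAD51B the left site is the lower of its pair in every library, by more in red light. At AT5G20740 the left site is the higher, by less in red light, and nearly level with the right one in red light replicate 1 alone. The order of the sites turns at PSY and SDG40.

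Without red light replicate 1, a set chosen after the lists were seen, 77 pairs had both sites called in the 5 other libraries, among them 38 no farther apart than 1098 bp. Limma called the ratio changed in 17 of the 77 (22.1%), and 7 of the 17 stayed past the threshold in every alternative that could be run for it. In 10 of the 17 the higher site of the pair gained on the lower in blue light and in 7 it lost. The higher site here has the higher mean log2(tags + 1) over the same 5 libraries, 3 blue and 2 red. The choice thus uses the tested values and weighs blue light more, so nothing is drawn from this split. The change was largest beside AT5G21940, whose pair lies in 1 gap between genes on chromosome 5, at 7251042 to 7251415 and 7251980 to 7252333. Its left site held 440.0, 371 and 400.4 tags under blue and 296 and 295 in red light replicates 2 and 3, and its right site 988, 931 and 961 and 371 and 390.4. In red light the right site stood much nearer to the left one, and the ratio changed by -0.89 (SE 0.10, limma adjusted p = 3.99e-14).

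In the gap between AT5G04760 and CAT6, a gene of a cationic amino acid transporter, the right site was also the one with less in red light relative to its partner. The left site had 925, 941 and 991 tags under blue and 683 and 671 in red light replicates 2 and 3, and the right site 766, 692 and 725 and 311 and 379, a change of -0.59 (SE 0.10, limma adjusted p = 1.71e-07). AT5G62130 and AT1G63420 each hold both sites of a pair inside the gene. In AT5G62130 the left site had 529.7 ± 6.63 tags in blue against 248 ± 8.20 in red light, and the right site 360.0 ± 30.4 against 233 ± 7.85 (SD, n = 3 and 2). The ratio changed by 0.47 (SE 0.11, limma adjusted p = 0.000805). In AT1G63420 the left site, 336 ± 22.2 tags under blue and 189 ± 12.9 in red light, was set against 691 ± 6.34 and 528 ± 0.778 at the right site, a change of 0.43 (SE 0.11, limma adjusted p = 0.000805). The remaining calls were RAD51B, AT5G20740, FRA1, PSY with SDG40, AT1G68440, AT4G17670, AT5G63520 with FP3, XYP1 with AT5G64090, AT2G21130, AT1G69890, AT3G21320, UVR3, a photolyase gene, with AT3G15630, and NTRB, a thioredoxin reductase gene, with PIRL4.

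The ratio of close neighbours changed about as much, and about as often, as that of more distant ones. The median size of the change was 0.18 for the 77 pairs, and 0.19, 0.16 and 0.18 for neighbouring sites 1500 to 3000, 3000 to 6000 and 6000 to 12000 bp apart. The share called was 22.2% of 176, 19.5% of 426 and 21.1% of 845 such neighbours. This is a description of these libraries, without a test of the difference. Within the 77 pairs the order of the sites was mostly kept: the site that was higher in blue light was the higher one in 61 pairs in red light replicate 2 and in 62 in replicate 3, and in 22 and 23 of the 23 pairs with a ratio over 1.5 in blue light.

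**Figure D5:**
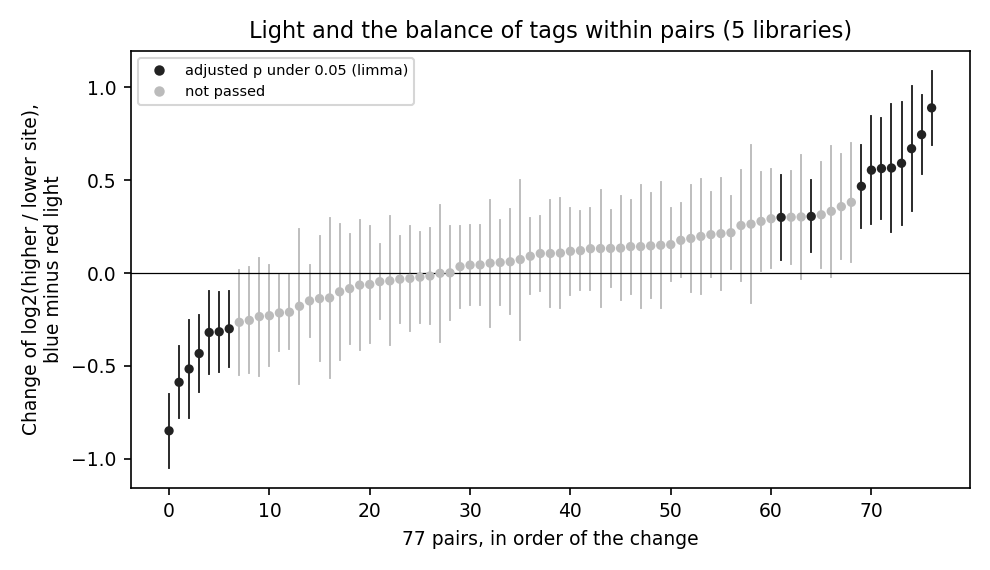
Change of the log2 ratio of the higher to the lower site between blue and red light (vertical axis, blue minus red) for the 77 pairs called at both sites in the 5 libraries without red light replicate 1, in the order of the change (horizontal axis), with 95% intervals. The higher site is the one with the higher mean log2(tags + 1) over the same 5 libraries. The 17 pairs past an adjusted p of 0.05 are dark, 10 above and 7 below 0.

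In 42 pairs 1 site was called in all 6 libraries and its partner in all 3 blue and no red light library, and 25 of these lie more than 1098 bp apart. GATA1, a zinc finger transcription factor gene, has the highest such pair, at chromosome 3, 8685160 to 8685708 and 8686257 to 8686638. Its site outside the gene held 767, 655 and 769.5 tags under blue and 589.5, 415 and 479 under red light, and the site inside the gene 283, 279.9 and 289 in blue light and no peak in red light. Beside BBX29, a B-box gene, the left site held 550.4, 469 and 498 tags under blue and 487, 357 and 399.6 under red light, and the right one 266, 240.3 and 257 in blue light alone. These 2 pairs lie within 1098 bp, a distance at which red light replicate 1 holds no 2 peaks.

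The pair of TIP2;2, a gene of a water channel of the vacuole, lies farther apart, with 1407 bp between its sites. Inside TIP2;2 the site held 503, 475 and 506 tags under blue and 464, 302 and 277 under red light, and the site outside the gene 241, 198 and 223 in blue light and no peak in red light. Other pairs of this kind were NET1D with MCCA, AT2G03690, AT1G20065 with AT1G20070, NTMC2T6.2 with AT3G14595, MKK9 with AT1G73510, AT4G15563 and AT2G36145 with AT2G36160. The site lost from the red light lists was the lower one in blue light in 37 of the 42 pairs and the higher one in 5. These pairs were chosen by their red light calls, and lone sites lower in blue light were also called less often in red light. Nothing about pairs is thus drawn from this count. A site without a peak is one below the caller's limits in that library, not one shown to be empty.

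In 15 of the 205 pairs (7.32%) called at both sites in all 3 blue light libraries, neither site had a peak in any red light library. Taken singly, 14.8% of all members and 14.9% of all lone sites had calls in all 3 blue and no red light library. Such sites are thus not particular to pairs. The examples here were chosen after their values were seen. AFB2, the gene of an auxin receptor, had 170.3, 217 and 178 tags at its left and 302, 306 and 274 at its right site in blue light, both in the gap between AT3G26800 and AFB2 on chromosome 3 at 9866520 to 9866895 and 9867437 to 9867830. FMO, a flavin monooxygenase gene, had 381, 403 and 349 and 198, 170.1 and 208 tags. BGAL8, a beta-galactosidase gene, had 194, 170.1 and 218 inside and 265, 246 and 249 outside the gene. Each of these sites had tags in all 3 blue light libraries and no value in red light.

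Among genes of light signalling and the clock, 7 had a pair of sites at them. The lists hold 108 genes, of which 95 had a site and 8 a member within 1500 bp outward or 500 bp inward of a gene end: 4 of 30 clock genes, 3 of 38 of light signalling, 1 of 13 of chlorophyll and plastids (PSY), and none of 12 of flavonoids or of 15 of antenna proteins and Rubisco. Of all 27444 protein-coding genes, 49.2% had a site and 3.61% a member. Among genes with a site, 8.42% of those listed and 7.33% of all protein-coding genes had a member. ELF3, a part of the evening complex of the clock, had a site outside the gene with 218, 196 and 198 tags in blue light and 139 and 131 in red light replicates 2 and 3, and one inside it with 382, 437 and 440.4 under blue and 377, 265 and 242 under red light. TOC1, a pseudo-response regulator that represses morning genes, had 637, 662 and 654 tags under blue and 606, 439 and 423 under red light at its main site. The neighbour of that site, 934 bp away, was called only in blue light replicates 2 and 3, with 209.6 and 217 tags.

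PRR5, another pseudo-response regulator, had sites of about equal height: 203, 199.8 and 210.2 tags under blue and 201, 179 and 145 under red light at the left site, and 197, 171 and 188 in blue and 152.3 in red light replicate 3 alone at the right site. RVE8, a MYB factor of the clock, had a site inside it with 209, 234 and 224 tags in blue and no peak in red light, and its neighbour lies inside AT3G09590 with 275, 247 and 298 in blue and 162.9 in red light replicate 2 alone. PHYB, the gene of the red light receptor phytochrome B, shares a gap with AT2G18780. There the site nearer PHYB held 286, 249 and 263 tags in blue and 206.2 in red light replicate 2 alone, whereas the other site held 499.9, 537 and 433 under blue and 770.0, 477 and 482 under red light.

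PIF7, a bHLH factor of shade responses, had a site with 238, 257 and 214 tags under blue and 224, 155 and 157 under red light and a lower one with 159, 153 and 161 in blue light and no peak in red light. FAR1, a factor of phytochrome A signalling, had 152, 137 and 141 tags in blue light at the site inside it and 103, 119 and 128 at the other, and neither in red light. At 6 of these 7 genes, all but FAR1, 1 site of the pair was called in more red light libraries than the other, and at 5 of the 7 without red light replicate 1, since ELF3 had both sites in the other libraries. Of all 541 pairs this held for 72.1%, and for 55.5% without red light replicate 1.

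The 247 members called in all 6 libraries were also compared one by one. In limma's fit over all 3557 such sites, 125 members (50.6%) were higher in blue light at an adjusted p under 0.05 and none in red light, also at an unadjusted p under 0.05. The background was 51.9% of all sites higher in blue and 0.0281% higher in red light. The median log2 change was 0.48 for members and 0.48 for lone sites. The count rests on single libraries: without red light replicate 1, 384 of 392 members were higher in blue light, and without any 1 of the other libraries 14 to 21. When each library was centred on its median, which sets this common shift to 0, 25 members (10.1%) were called higher under blue light and 38 (15.4%) under red light, against a background of 7.96% and 11.8% of all sites.

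The member with the largest change lies beside AT4G26190, with 424, 462 and 481 tags under blue and 156, 107 and 135 under red light, a log2 change of 1.79 (SE 0.21, limma adjusted p = 1.34e-13). The left site of AT5G20740 followed with 1.51. A site whose nearest gene is HB40, a homeobox leucine zipper gene, lies 3512.5 bp from the end of that gene and 806 bp from its neighbour. This site had 711, 713 and 725 tags under blue and 378, 220.1 and 223 under red light, a change of 1.43. AT2G42290 and AT3G27680 had changes of 1.35 and 1.28. In all of these sites each blue light library was above each red light one.

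At the other end stood 5 members that did not pass the threshold and whose tags overlapped between the lights. The site of the PHYB gap nearer AT2G18780 had a log2 change of -0.20, the right site of RAD51B -0.19 and a site inside AT4G15563 -0.18. DAD1, a gene of a lipase of jasmonate synthesis, had 429, 356 and 417 tags under blue and 486, 400.4 and 356 under red light, a change of -0.04, and a site inside AT2G36145 had -0.03. These signs rest on red light replicate 1. Without it the changes at the 5 sites, in the order given, were 0.03, 0.00, 0.06, 0.08 and 0.24, and limma called the last one, at AT2G36145, higher in blue light (limma adjusted p = 0.0101). With each library centred these 5 changes were -0.73, -0.72, -0.71, -0.57 and -0.56, and all passed the threshold. The partners of 3 of them were seldom called in red light: that of the PHYB gap in 1 library, and those at AT4G15563 and AT2G36145 in none.

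The 26 groups of 3 sites spanned up to 2722 bp, with a median of 2009 bp. All 3 sites were called in 7, 10 and 11 groups in blue and in 0, 1 and 2 in red light. The highest lies beside AT5G40790 and AT5G40800 on chromosome 5. From left to right its sites held 323, 316 and 340.3, then 367, 324 and 317, then 304, 297 and 315 tags in blue light replicates 1 to 3. In red light the middle site alone was called in all 3 libraries, with 355, 220.1 and 231 tags, and the outer ones in replicates 2 and 3, with 200.2 and 195 and 225 and 235.

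The group beside NAC032, a gene of a NAC transcription factor, and PBC2, a proteasome subunit gene, also had its middle site in all 6 libraries, with 391, 393 and 349 tags under blue and 383, 229 and 232 under red light. FAH1, the gene of ferulate 5-hydroxylase of sinapate and lignin synthesis, had its right site in all 6, with 384, 359 and 380.4 and 325, 226 and 223 tags, and the other sites in no red light library. FLA2, a gene of an arabinogalactan protein, AT5G40720 and AT1G62480 had the other groups of the highest 6. Of the 26 groups, 22 had a site called in red light. The site with the most tags in blue light was called in more red light libraries than the others in 13 of these groups, shared the highest number of red light calls in 4, and was called in fewer than another site in 5. Red light replicate 1 held 1 site in 10 groups and 2 or 3 sites in none, so it could set 1 site above the others. In the group of AT5G40790 and AT5G40800 it alone did so. The counts of 13, 4 and 5 were not made without it.

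Members lay farther from gene ends than lone sites. Of the members 40.4% and of the lone sites 44.6% had their centre inside a gene, the median distance to the nearest gene end was 319.5 against 143.5 bp, and 18.0% against 10.7% lay outside genes and more than 1000 bp from one. In 233 pairs 1 site lay inside and 1 outside a gene, 186 pairs lay in the same gap between genes, 65 inside the same gene, 39 inside different genes and 18 on either side of a gene. The nearest gene was the same for both sites in 299 pairs (55.3%). Of the 85 pairs with a site inside and one outside a gene that had both sites in all 3 blue light libraries, the higher site lay outside in 41 and inside in 44. At the limit that defines a pair, 53 neighbours 1400 to 1500 bp apart had both sites called in 67.9% to 71.7% of cases in blue and 3.77% to 22.6% in red light libraries. For 49 neighbours 1500 to 1600 bp apart the shares were 61.2% to 81.6% and 14.3% to 30.6%.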

How the data were processed

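The deposited data were 6 peak lists, 1 per HY5-YFP library. HOMER's findPeaks was run by the authors in factor style on every library with the mock as control, per the file headers, and a peak needed 4 times the mock and 4 times its 10000 bp surroundings. HOMER was of version 4.9 and the build TAIR10, per the submitters' processing notes. An aligner was not given in the sources used here. The signal of a peak, as deposited, counts its tags per 10 M tags of the library. The lists also hold the authors' fold over each control and, as a fraction, the focus ratio deposited for each peak, which says how centred its tags are and was not used for any result.

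Peaks sharing 1 bp were joined over the lists, and the highest peak stood for a site and library. A site without a peak has no value in that library and enters no fit that needs it. The members and the gene lists were chosen with earlier results of these data known. Log2(tags + 1) was compared with limma (version 3.58.1, R 4.3.3, lmFit with eBayes and a trend), with Benjamini-Hochberg adjustment over all sites, or all pairs, fitted, and a threshold of 0.05. The scripts were tested on simulated data. Shares were compared by exact permutation tests over the 6 libraries. Intervals cover 95%. P-values measure the spread between the biological replicates of the labels. In limma this spread was pooled over all sites, or all pairs, fitted, along the trend with tags. An SE, interval or p-value of limma is thus not that of the replicates of 1 site or pair alone. Very small limma p-values rest on this pooling.

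Genes were taken from the RefSeq table of TAIR10.1, which has no strand, for names and neighbours alone. The pairs named are those called at both sites in all 6 libraries (11), those past the threshold for the ratio, the 10 highest with a partner called in blue light alone, the 6 groups with the most sites and tags, members at listed genes and the 5 members with the highest and the lowest change by light. AFB2, FMO and BGAL8 were chosen after their values were seen. The 11 pairs were few, so pairs called in the 5 libraries without red light replicate 1 were fitted too, a choice made after seeing the data. Alternatives were each library left out, another join, 8-fold over the mock, other distance limits, lists of equal length, other pseudocounts, a minimum of 100 tags, centred libraries and a replicate block.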

Additional observations from a re-analysis of the deposited data

Results flagged for a closer look

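In 4 pairs the 2 sites differed in their response to light by the test of the difference itself, the limma test of log2(left / right), blue minus red light. The change was 0.94 beside RAD51B and 0.92 at AT5G20740, where the left site held relatively more tags in blue light. It was -0.40 between PSY and SDG40 and -0.44 at FRA1, where the right site did. With each library left out, RAD51B and AT5G20740 stayed past the threshold in 6 of 6 runs. PSY with SDG40 did so in 3 of 6 and FRA1 in 2 of 6.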

How the results depend on the processing

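The number of members called higher in blue light, 125 of 247, was 22 of 46 under an 8-fold limit over the mock, 55 of 99 and 218 of 408 with distance limits of 1000 and 2000 bp, 62 of 119 for neighbours beyond 1098 bp, 71 of 124 in lists of equal length and 14 to 384 with each library left out. With each library centred it was 25, with 38 higher in red light. The cause was not tested, but the distance limits and filters also change how many members are fitted. Of the 11 pairs fitted in 6 libraries 4 were called, and 2 or 3 of the 11 with any library but red light replicate 1 left out. Without red light replicate 1 it was 17 of 77 pairs, and with a limit of 2000 bp 14 of 36. With 8-fold over the mock or a limit of 1000 bp fewer than 3 pairs were left and no fit was made. In the 5 libraries, 17 of 77 became 12 to 15, of 77 to 96 pairs, with each library left out, 2 of 12 with 8-fold over the mock, and 9 of 32 and 35 of 130 with limits of 1000 and 2000 bp.

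The gap in the called share of members and lone sites differed between lights by -0.04 percentage points, and the sign turned with a limit of 2000 bp (0.0733), for neighbours beyond 1098 bp (4.14, or 1.89 without red light replicate 1) and in lists of equal length (10.9). In lists of equal length the gap was -33.0 in red light replicate 1 and between -2.65 and -1.07 in every other library. With each library left out the difference between lights ranged from -3.30 to 2.095. The difference in median tags, 0.09, turned to -0.0235 under the 8-fold limit and to -0.18 in lists of equal length. With each library left out, the change within a pair that turned its sign ranged from -0.0420 to 0.13 at RKP, -0.0834 to 0.19 at AT1G35560 and -0.0567 to 0.14 at AT4G21926. For sites it ranged from -0.17 to 0.24 at AT2G36145, -0.14 to 0.0804 at AT2G44810 (DAD1), -0.30 to 0.0618 at AT4G15563, -0.31 to 0.00168 at AT2G28560 (RAD51B) and -0.32 to 0.0258 at AT2G18780, with each highest value that without red light replicate 1.

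Replicate numbers are shared by the lights, but libraries of the same number did not deviate together (r = -0.04, -0.09 and 0.05), so they do not pair the samples. With the replicate block 99 of 247 members and 4 of 11 pairs were called, and 10 of 77 in the 5 libraries. For the shares, the exact sign-flip test over 3 pairs then cannot go below p = 0.25. Count models and voom weights were planned and not run, since the deposited tags are scaled.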
